A study of Rattus norvegicus with 8 samples.

Results

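The proteasome genes of cultured rat oligodendrocyte precursor cells were described after 6 h without oxygen and glucose. Genes were taken by symbol, as every row whose symbol begins with Psma to Psmg followed by a digit, which gave 50 of the 32662 genes in the table, each on 1 row. They comprised 14 subunits of the constitutive core (7 alpha and 7 beta), 9 of the base, 8 of the lid, 5 immunoproteasome genes (Psmb8, Psmb9, Psmb10, Psme1 and Psme2), 7 assembly chaperones, and 3 genes for other caps and an inhibitor. They also included 2 core genes used in particular tissues (Psma8 in testis, Psmb11 in thymus), the pseudogene Psme1-ps1, and Psmc3ip. The last encodes a cofactor of meiotic recombination and is no proteasome subunit, although its symbol fits the rule.

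Messenger RNA was sequenced from 4 OGD and 4 Control samples. The OGD samples were kept under oxygen glucose deprivation for 6 h, a culture model of ischaemia, and the Control samples under normal conditions for 6 h. All samples were primary oligodendrocyte precursor cells from the cerebral cortex of Sprague Dawley rats aged 1 to 2 days, with no transgene or mutation named. They were collected as the non-adherent cells of mixed glial cultures grown in DMEM with 20% FBS. Culture for 4 to 5 days followed, in Neurobasal medium with 2% B27, 2 mM glutamine, 1% penicillin/streptomycin, and PDGF and FGF at 10 ng/ml each. The labels do not say whether samples of a group came from separate cultures. The p-values therefore set the group difference only against the spread among these samples, and that spread may be technical.

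The proteasome is the barrel-shaped protease that degrades most proteins tagged with ubiquitin. Its core is built of alpha rings, which gate the entrance, and beta rings, which hold the cutting sites. A regulatory cap on the core consists of a base, whose ATPases unfold the substrate, and a lid, which removes the ubiquitin. Under interferon, and constitutively in immune cells such as microglia, beta subunits with cutting sites are replaced by immunoproteasome versions that favour peptides for antigen presentation. Oligodendrocyte lineage cells make large amounts of protein and membrane, and the constitutive proteasome is present in them as in all nucleated cells.

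Values were FPKM, which scale fragments by gene length and by the library total. Summed over all members but Psmc3ip, they came to 0.50%, 0.472%, 0.539% and 0.601% of the summed FPKM of all genes in OGD replicates 1 to 4. In Control replicates 1 to 4 they came to 0.634%, 0.587%, 0.593% and 0.609%. OGD replicate 4 thus lay within the Control range. Mitochondrially encoded genes took 20.4% to 30.4% of the summed FPKM in OGD libraries, lowest in OGD replicate 4, and 25.1% to 27.9% in Control libraries. Outside these genes the proteasome share was 0.710%, 0.679%, 0.703% and 0.755% in OGD against 0.858%, 0.815%, 0.807% and 0.813% in Control, and the groups did not overlap. Total fragment numbers are unknown, but steps between low values gave depths of 0.816 to 1.18 relative to Control replicate 1. The precursor markers Olig1 and Ptprz1 stood at 357 ± 28 and 271 ± 18.3 FPKM in OGD and at 794 ± 41.4 and 342 ± 42.8 FPKM in Control libraries (SD, n = 4 each). Of the 9 matched precursor markers 6 were lower in OGD (66.7%, against 26.8% of all tested genes). The other 3 did not pass, namely Olig2, Sox10 and Nkx2-2 at 96.1%, 105% and 111% of the Control level. The call of Ptprz1 was lost with quantile normalization (adjusted p = 0.104).

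Of the 50 members, 46 passed the filter of at least 1 FPKM in at least 4 samples. Of these 46, 25 were lower in OGD and 1 was higher (limma on log2(FPKM + 1), Benjamini-Hochberg adjusted p under 0.05 over 11149 tested genes), and 20 did not pass. Over all tested genes 26.8% were lower and 22.7% higher, whereas 54.3% of tested members were lower. The median log2 change was -0.24 over the 46 members, with 38 below 0, and -0.04 over all tested genes. For 23 members the highest OGD value was below the lowest Control value, and for 1 member the groups were apart the other way, while over all tested genes these shares were 24.1% and 20.7% (44.7% in either direction). Most of the changes were small. The constitutive core, base and lid had a median OGD level of 82.8% of the Control level. The 4 members not tested were Psmb8, Psmb11, Psma8 and Psme1-ps1.

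**Figure D1:**
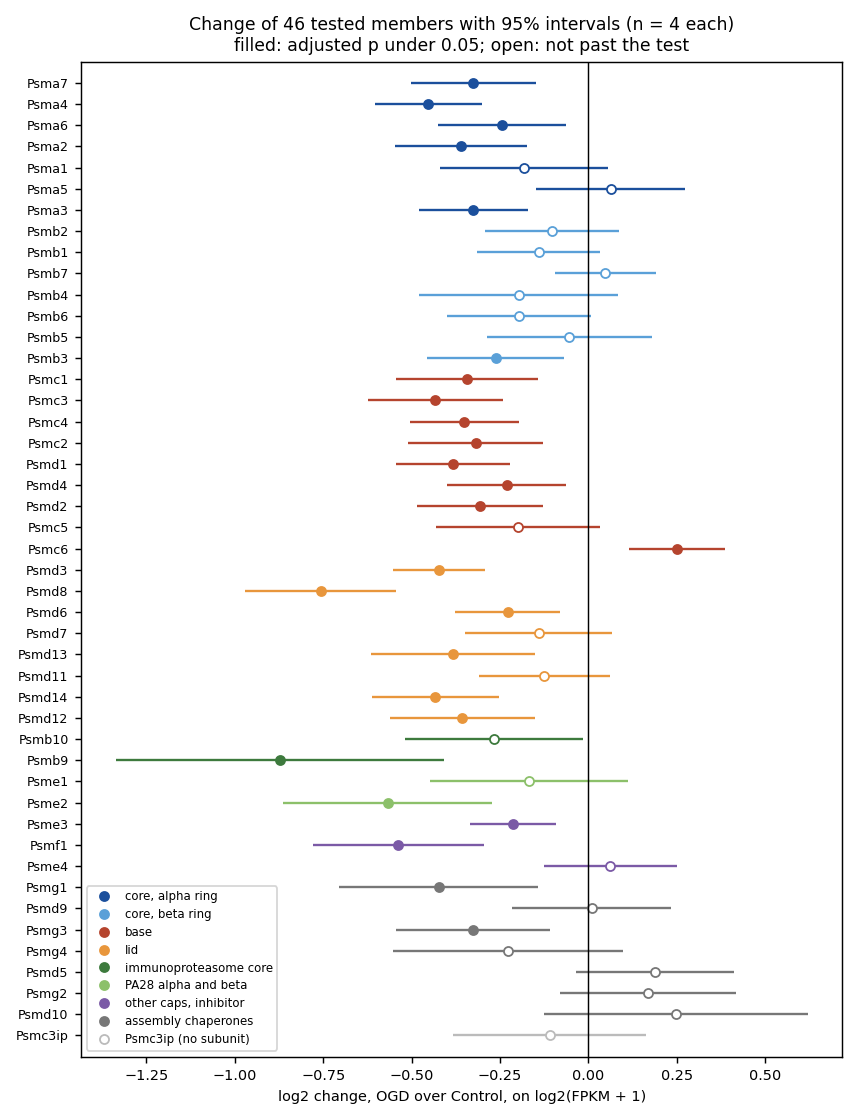
Log2 change (OGD over Control, on the log2(FPKM + 1) scale, horizontal axis) of each of the 46 tested genes, coloured by class, with 95% intervals from limma (n = 4 each). Filled points passed the test, 25 on the lower side and 1 (Psmc6, at 0.25) on the higher side.

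The subunits of the core were among the more abundant members. Control means ran from 39.2 FPKM (Psma3) to 171 FPKM (Psma7), and OGD means from 31.1 FPKM (Psma3) to 151 FPKM (Psmb2). FPKM is scaled by gene length, and by these values subunits present in equal number in the finished core differed severalfold. RefSeq lists 3 copies of Psma7 and 2 of Psma3, the ends of the Control range. The part of such copies in these levels was not tested. In Control the top of the order was Psma7 (171 ± 11.3 FPKM), Psmb2 (163 ± 19.4), Psmb1 (136 ± 12.7) and Psma4 (132 ± 10.6), of which Psma7 and Psmb2, and likewise Psmb1 and Psma4, differed by less than their spread. Base and lid were lower in their median (63.4 and 59.1 FPKM in Control, against 110 FPKM for the core). Their Control means of 33.1 to 102 and 26.2 to 85.7 FPKM overlapped the core range. The assembly chaperones stood at 8.21 to 26.9 FPKM in Control and at 10.2 to 19.9 FPKM in OGD.

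**Figure D2:**
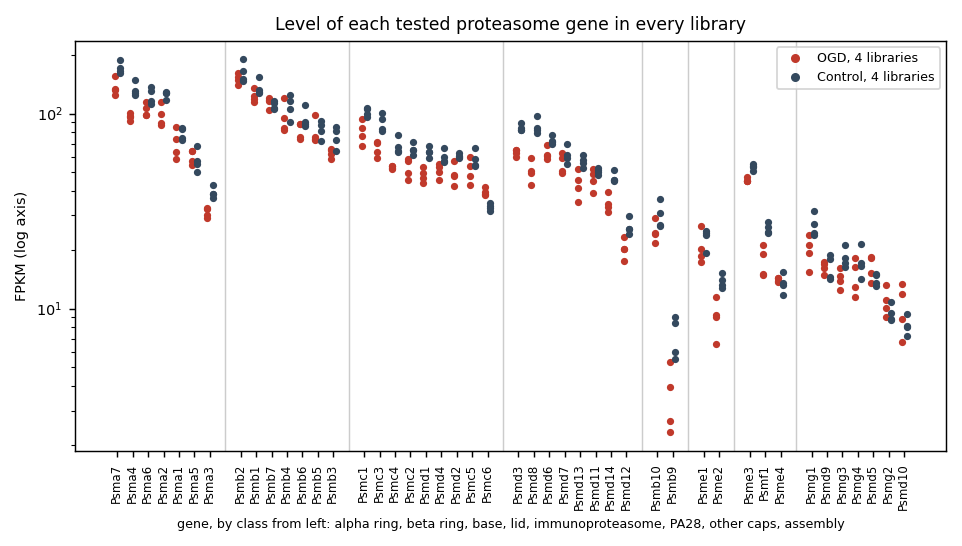
FPKM (log axis) of each tested gene in the 4 OGD libraries (left of each pair) and the 4 Control libraries (right), with genes grouped by class and Psmc3ip left out. The highest genes are core subunits and the lowest is Psmb9, while core, base and lid overlap in level. In the lid the OGD points of Psmd8 (42.8 to 59.1 FPKM) lie clear below the Control points (79.6 to 96.6 FPKM).

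In the alpha ring, whose subunits form the gate of the core, 5 of 7 genes fell (71.4%) and 0 rose. Over all tested genes 26.8% were lower and 22.7% higher, and the median log2 change of the alpha ring was -0.33. Psma4 (ENSRNOG00000013493) had 91.1, 96.0, 97.7 and 101 FPKM in OGD libraries, against 148, 124, 127 and 131 FPKM in Control libraries. All OGD values were below all Control values, and the log2 change was -0.45 (SE 0.07, adjusted p = 0.000351 in limma). Psma7 (ENSRNOG00000056853), the most abundant alpha subunit, had 134, 124, 132 and 156 FPKM in OGD and 187, 162, 165 and 171 FPKM in Control. It fell by 0.33 on the log2 scale (SE 0.08, limma adjusted p = 0.00620). Psma2, Psma3 and Psma6 were at 78.1%, 79.3% and 84.2% of the Control level. Psma6 was the member of these whose groups overlapped, with 115 FPKM in OGD replicate 4 and 112 FPKM in Control replicate 2. It missed the threshold when values were quantile normalized (adjusted p = 0.0974), and when OGD replicate 2 or 3 or Control replicate 1 or 4 was left out (adjusted p = 0.0694 to 0.0816). Psma1 was at 70.1 ± 11.9 FPKM in OGD and 78.9 ± 5.50 FPKM in Control, and Psma5 at 59.9 ± 5.10 and 57.5 ± 7.51 FPKM, and both missed the threshold (adjusted p = 0.186 and 0.612 in limma).

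The beta ring moved less. Of its 7 genes 1 fell (14.3%, against 26.8% of all tested genes) and 6 did not pass, with a median log2 change of -0.14. The lower gene was Psmb3, a structural subunit without a cutting site, at 82.8% of Control (limma adjusted p = 0.0290). RefSeq lists 10 pseudogenes or like-named copies of Psmb3, and reads may have been split among them, which was not tested. The call of Psmb3 was lost with quantile normalization (adjusted p = 0.0705), without OGD replicate 1 (0.0621) or 2 (0.0729), without Control replicate 1 (0.0751) or 3 (0.0848), and without OGD replicate 4 and Control replicate 1 together (0.0704). Whether the beta ring changed less than the alpha ring was not tested. The 3 genes of the cutting subunits are Psmb6 (beta1, caspase-like), Psmb7 (beta2, trypsin-like) and Psmb5 (beta5, chymotrypsin-like), and none of them passed. Psmb7 had 117, 104, 121 and 117 FPKM in OGD and 116, 106, 107 and 114 FPKM in Control, with a log2 change of 0.05 and a 95% interval of -0.10 to 0.19. Psmb5 had 75.7, 72.7, 74.3 and 98.2 FPKM in OGD and 91.7, 71.9, 81.1 and 87.6 FPKM in Control, with an interval of -0.29 to 0.18. Psmb6 had 87.9, 88.6, 73.9 and 75.6 FPKM in OGD and 110.0, 87.9, 86.8 and 90 FPKM in Control, with an interval of -0.40 to 0.01. The groups overlapped for all 3 genes. RefSeq lists 3 copies of Psmb6 and 2 of Psmb7, whose part in these values was not tested. The interval of Psmb6 includes the median change of the alpha ring, -0.33, while those of Psmb5 and Psmb7 end above it. That median has no interval here, so this is no test of a difference. Without OGD replicate 4, the library with the highest Psmb5 value, the log2 change of Psmb5 was -0.15 (limma adjusted p = 0.149). With quantile normalization Psmb7 was called higher (log2 change 0.14, adjusted p = 0.05). Psmb2, the most abundant beta subunit, was at 151 ± 9.29 FPKM in OGD and 163 ± 19.4 FPKM in Control (limma adjusted p = 0.347).

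The base, the ring of ATPases with its scaffolds and ubiquitin receptor, had 7 of 9 genes lower (77.8%) and 1 higher. Of all tested genes 26.8% were lower and 22.7% higher, and the median log2 change of the base was -0.32. Psmc3 (ENSRNOG00000011414), an ATPase, had 63.3, 59.0, 70.6 and 71.4 FPKM in OGD, against 100.2, 83.4, 81.3 and 93.3 FPKM in Control. The groups did not overlap, and it fell by 0.43 on the log2 scale (SE 0.09, limma adjusted p = 0.00192). The other lower ATPases, Psmc1, Psmc2 and Psmc4, were at 79.1%, 80.1% and 77.8% of Control. Psmc1, the most abundant of the base, had 67.9, 76.5, 83.9 and 93.8 FPKM in OGD and 105, 96.1, 99.6 and 106 FPKM in Control (log2 change -0.34, limma adjusted p = 0.00955). The scaffolds Psmd1 and Psmd2 were at 76.4% and 80.9% of Control and the ubiquitin receptor Psmd4 at 85.0%. The call of Psmd4 was lost without OGD replicate 1 or 2 or Control replicate 1 or 4 (adjusted p = 0.0550 to 0.0802). Psmc5 was at 50.9 ± 7.29 FPKM in OGD and 58.4 ± 6.02 FPKM in Control and did not pass (limma adjusted p = 0.138).

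Psmc6 (ENSRNOG00000007203), another ATPase of the same ring, went the other way. It had 38.0, 39.4, 38.9 and 42.1 FPKM in OGD libraries, against 34.6, 33.7, 31.5 and 32.8 FPKM in Control libraries. Every OGD value was above every Control value, and the log2 change was 0.25 (SE 0.06, adjusted p = 0.00601 in limma). It stayed higher under each of the 17 alternatives run, from 0.22 to 0.29 on the log2 scale (adjusted p = 0.00236 to 0.0251). RefSeq lists 2 pseudogene copies of Psmc6 and 2 genes that overlap it (Styx and Rps10l6), and reads may have been split or shared among them, which was not tested.

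In the lid 6 of 8 genes fell (75%, against 26.8% of all tested genes) and 0 rose (against 22.7%). The median log2 change was -0.37. Psmd8 (ENSRNOG00000037580), the orthologue of yeast Rpn12, had 42.8, 50.5, 49.5 and 59.1 FPKM in OGD, against 96.6, 84.2, 82.6 and 79.6 FPKM in Control. This was 58.9% of the Control level, the largest fall among the constitutive core, base and lid genes, with a log2 change of -0.76 (SE 0.10, adjusted p = 0.000114 in limma). RefSeq lists 2 pseudogene copies of Psmd8 and an overlapping locus, which makes its value uncertain. Psmd3 had 59.6, 62.7, 64.7 and 64.8 FPKM in OGD and 89.8, 82.4, 81.9 and 84.7 FPKM in Control, a log2 change of -0.42 (SE 0.06, adjusted p = 0.000201 in limma). Psmd14 (ENSRNOG00000061129), the enzyme that cuts ubiquitin off the substrate, had 33.1, 31.2, 34.2 and 39.7 FPKM in OGD and 51.3, 45.5, 44.9 and 45.7 FPKM in Control, a log2 change of -0.43 (SE 0.08, adjusted p = 0.00131 in limma). Neither gene's groups overlapped. Psmd12, Psmd13 and Psmd6 were at 77.4%, 76.9% and 85.2% of Control, and Psmd6 missed the threshold when OGD replicate 1 was left out (adjusted p = 0.0501) or values were quantile normalized (adjusted p = 0.0916). Psmd7, the catalytically inactive partner of Psmd14, was at 55.6 ± 6.37 and 61.4 ± 6.17 FPKM, and Psmd11 at 46.4 ± 5.52 and 50.5 ± 1.82 FPKM, in OGD and Control, and neither passed (limma adjusted p = 0.238 and 0.239).

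**Figure D3:**
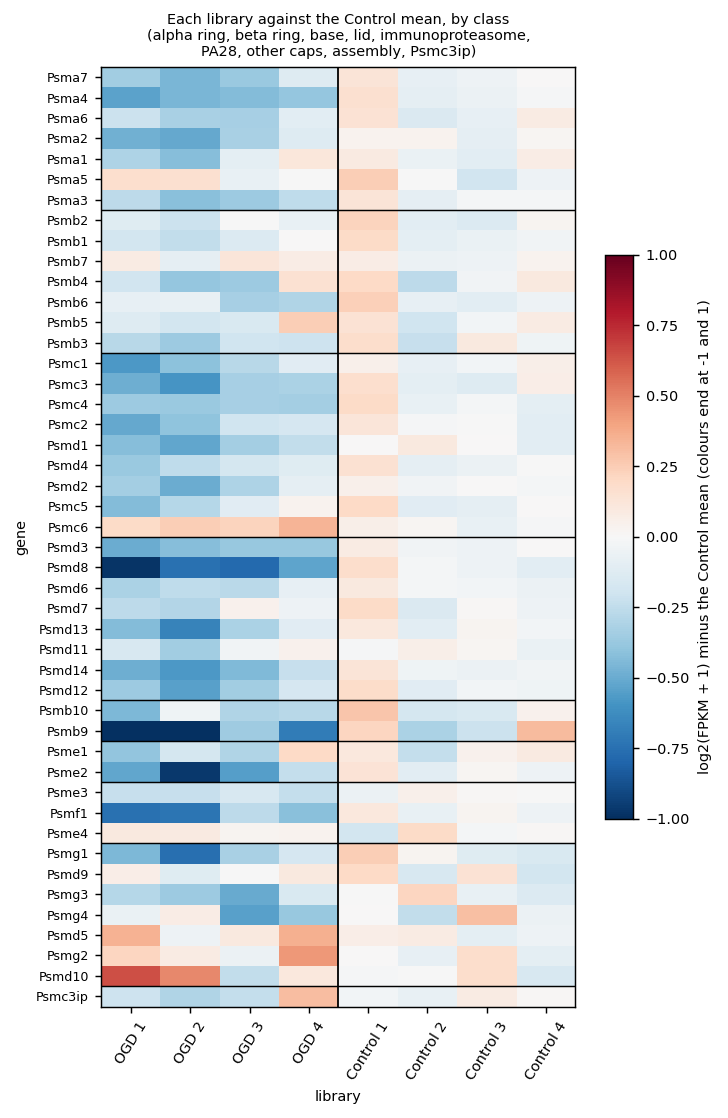
Log2(FPKM + 1) of each tested gene in each library minus its Control mean, with OGD libraries left of Control libraries and horizontal lines between classes. Blue is below the Control mean. Base and lid are mostly blue in OGD replicates 1 to 3 and paler in OGD replicate 4, and Psmc6 is the base gene that is red in all OGD libraries.

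The size of the fall differed among OGD libraries. The median log2 distance of the base genes from their Control mean was -0.43, -0.40, -0.28 and -0.12 in OGD replicates 1 to 4, against 0.12, -0.07, -0.03 and -0.01 in Control replicates 1 to 4. For the lid the values were -0.40, -0.49, -0.33 and -0.14 in OGD and 0.12, -0.04, -0.03 and -0.05 in Control. For the core they were -0.20, -0.34, -0.26 and -0.09 in OGD and 0.15, -0.09, -0.06 and 0.01 in Control. OGD replicate 4 was closest to Control in all 3 classes, and for the core it lay just below the lowest Control library. Without OGD replicate 4, Psma1, Psmb4, Psmc5 and Psme1 were also lower, and so was Psmc3ip, which made 30 members lower. Without it and Control replicate 1 together, the libraries with the highest summed member level of each group and left out after seeing the data, 25 were lower.

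Of the 7 chaperones that assemble the particle, 2 were lower (28.6%), near the 26.8% over all tested genes. Both, Psmg1 and Psmg3, serve the alpha ring, and the median log2 change of the 7 was 0.01. Psmg1 (ENSRNOG00000001643) had 19.2, 15.4, 21.1 and 23.7 FPKM in OGD and 31.8, 27.3, 24.5 and 23.9 FPKM in Control, a log2 change of -0.42 (SE 0.13, adjusted p = 0.0173 in limma). The groups were separated by the narrow gap between OGD replicate 4 and Control replicate 4. Psmg3 was at 78.6% of Control (limma adjusted p = 0.0183), and this call was lost without OGD replicate 3 (adjusted p = 0.0535) or Control replicate 2 (adjusted p = 0.0519). Psmg2, the partner of Psmg1, was at 10.8 ± 1.75 FPKM in OGD and 9.47 ± 0.925 FPKM in Control, and Psmg4, the partner of Psmg3, at 14.7 ± 3.06 and 17.3 ± 2.96 FPKM (limma adjusted p = 0.236 and 0.223). The base chaperones Psmd5, Psmd9 and Psmd10 did not pass either, with log2 changes of 0.19, 0.01 and 0.25. Psmd10, also called gankyrin, had 13.3, 11.8, 6.76 and 8.89 FPKM in OGD and 8.08, 8.17, 9.36 and 7.23 FPKM in Control. Its OGD replicates 1 and 2 were above all Control libraries and OGD replicate 3 below them, and without OGD replicate 3 it was called higher (log2 change 0.41, adjusted p = 0.0319). Psmd5 was called higher without OGD replicate 2 (log2 change 0.27, adjusted p = 0.0359).

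Among the other regulators of the core, Psmf1 (ENSRNOG00000009640), the inhibitor and adaptor PI31, had 14.9, 15.1, 21.3 and 18.9 FPKM in OGD, against 27.7, 24.3, 26.1 and 24.7 FPKM in Control. The groups did not overlap and it fell by 0.54 on the log2 scale (SE 0.11, limma adjusted p = 0.00215). Psme3, the nuclear cap PA28 gamma, had 45.1, 45.1, 47.5 and 44.8 FPKM in OGD and 50.9, 54.8, 53.5 and 52.9 FPKM in Control, a smaller fall with tight groups (log2 change -0.21, SE 0.06, limma adjusted p = 0.00851). Psme4, the cap PA200, was at 14.0 ± 0.362 FPKM in OGD and 13.5 ± 1.55 FPKM in Control (limma adjusted p = 0.572).

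The immunoproteasome genes were far less abundant than the subunits they replace. Psmb9 (beta1i, ENSRNOG00000000459) had 2.65, 2.32, 5.31 and 3.97 FPKM in OGD, against 8.39, 5.49, 5.97 and 9.07 FPKM in Control. All OGD values were below all Control values, although OGD replicate 3 came close to Control replicate 2. The OGD mean was 49.3% of the Control mean, and the log2 change of -0.87 was the largest fall among the 46 tested members (SE 0.21, limma adjusted p = 0.00563). Psmb10 (beta2i) had 21.6, 29.0, 24.0 and 24.5 FPKM in OGD and 36.5, 26.4, 26.9 and 30.9 FPKM in Control. Its groups overlapped through OGD replicate 2, and it did not pass (log2 change -0.27, limma adjusted p = 0.0726, range over 17 alternatives 0.0294 to 0.227). It was called lower without OGD replicate 2 (adjusted p = 0.0294), without Control replicate 2 (adjusted p = 0.0476) and after median-centring (adjusted p = 0.0499).

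Psmb8 (beta5i) was near the limit of detection and was not tested. OGD replicates 3 and 4 held 0.138 and 0.139 FPKM and the other OGD libraries 0, against 0.472, 0.152, 0.425 and 0.591 FPKM in Control. Multiplied by the relative depth, the values above 0 stood at 1.0 and 1.04 times the smallest in OGD replicates 3 and 4 and at 3.0, 1.0, 3.0 and 4.0 times in Control, close to whole steps. A listed 0 may also be a failed estimate in this table, since Pomp, the chaperone with which cells mature the core, held 0 in all but OGD replicate 2 (0.646 FPKM) and Control replicate 4 (0.247 FPKM).

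Relative to the constitutive subunit it replaces, Psmb9 stood at 3.02%, 2.62%, 7.18% and 5.25% of Psmb6 in OGD libraries and at 7.63%, 6.25%, 6.88% and 10.1% in Control libraries. The mean log2 ratio differed by -0.87, and OGD replicate 3 lay within the Control range (two-sided exact permutation test over samples, p = 0.0857, adjusted to 0.114 for the 2 ratios tested, n = 4 each). Psmb10 stood at 18.5%, 27.9%, 19.9% and 21.0% of Psmb7 in OGD and at 31.4%, 24.9%, 25.1% and 27.2% in Control, a difference of -0.33 in the mean log2 ratio (same exact test, p = 0.114, adjusted p = 0.114). Neither ratio passed, and the smallest p that 4 against 4 allows is 0.0286. The ratio of Psmb8 to Psmb5 was not tested because of the values at 0, and it was at most 0.185% in OGD and 0.674% in Control.

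The interferon-inducible cap PA28 consists of alpha and beta subunits. Psme2 (ENSRNOG00000019246), the beta subunit, had 9.32, 6.57, 9.07 and 11.5 FPKM in OGD and 15.2, 12.7, 13.9 and 13.3 FPKM in Control. The groups did not overlap and the log2 change was -0.57 (SE 0.13, limma adjusted p = 0.00496). Psme1, the alpha subunit, had 17.2, 20.2, 18.5 and 26.5 FPKM in OGD and 24.9, 19.3, 23.8 and 24.5 FPKM in Control. It did not pass (log2 change -0.17, limma adjusted p = 0.291), and without OGD replicate 4, its highest library, it was lower (adjusted p = 0.0319). RefSeq lists 3 copies each of Psme1 and Psme2, of which the table has a row for Psme1-ps1, listed at 0 in every library.

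**Figure D4:**
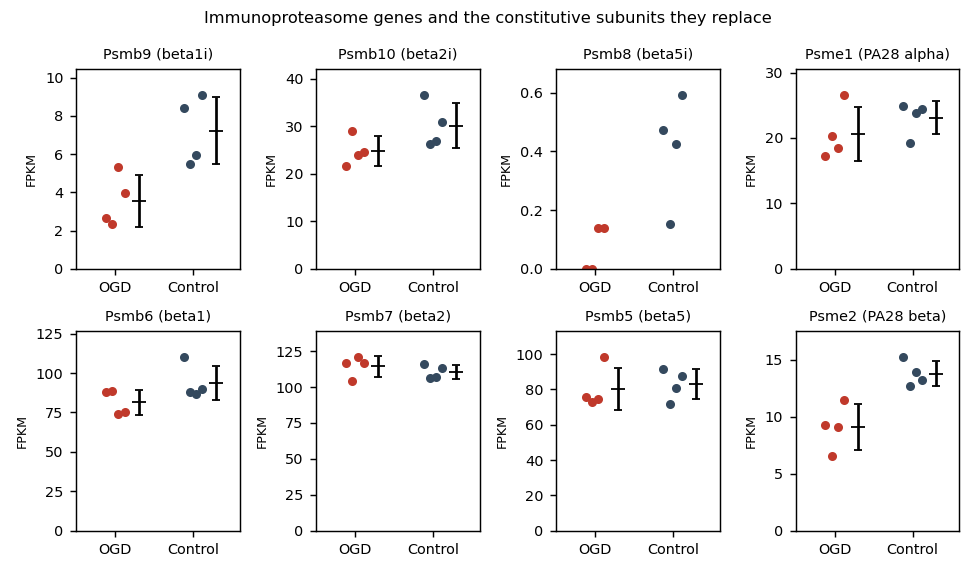
FPKM of the immunoproteasome core genes (upper row, left), of the constitutive subunits they replace (lower row, left) and of the PA28 subunits (right column), with each library as a point, OGD left of Control, and the mean ± SD (n = 4 each) beside the points except for Psmb8. Psmb9 and Psme2 are lower in every OGD library than in any Control library, while Psmb7 is level.

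Markers of microglia, cells that use the immunoproteasome constitutively, moved in these libraries too. Of 13 matched microglial markers 12 were tested, of which 11 were lower (91.7%, against 26.8% of all tested genes) and 0 higher (against 22.7%). The median log2 change of these markers was -1.11. Their summed level was 71.7 to 131 FPKM in OGD and 212 to 347 FPKM in Control libraries, and no marker was at 0 in all samples. C1qa, of complement, was at 19.3 ± 7.02 FPKM in OGD and 60 ± 14.8 FPKM in Control, and C1qc at 17.3 ± 5.51 and 55.0 ± 13.4 FPKM. In bulk samples fewer cells of a type and less RNA per cell cannot be told apart. The part of microglia in the values of Psmb9, Psmb10, Psmb8, Psme1 and Psme2 was not tested. Of 4 tested astrocyte markers 1 was lower (25%, near the 26.8% over all tested genes). The astrocyte list summed to 66.6 to 75.3 FPKM in OGD and 74.9 to 79.7 FPKM in Control. Of 6 neuronal markers 2 were lower (33.3%) and 2 higher, against 26.8% and 22.7% over all tested genes. The neuronal list summed to 105 to 118 FPKM in OGD and 88.4 to 96.1 FPKM in Control. Slc1a3 and Slc1a2 (astrocytes) were at 60.1 ± 2.49 and 7.82 ± 2.78 FPKM in OGD and at 63.4 ± 2.67 and 8.97 ± 1.88 FPKM in Control, while Tubb3 and Syn1 (neurons) were at 53.0 ± 7.17 and 27.6 ± 2.57 FPKM in OGD and at 30.2 ± 3.88 and 34.6 ± 0.596 FPKM in Control. Vascular and stromal markers, Kdr and Cdh5 leading, summed to 0.0911 to 0.224 FPKM in OGD and 0.197 to 0.314 FPKM in Control.

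Genes of the interferon response and of antigen processing, which act with the immunoproteasome, were mostly lower. Of 11 tested, 7 fell (63.6%, against 26.8% of all tested genes) and 1 rose (22.7% of all tested genes did). The median log2 change was -0.34. Irf1, a transcription factor that induces immunoproteasome genes under interferon, had 1.56, 1.87, 2.80 and 2.46 FPKM in OGD, against 5.48, 3.46, 4.87 and 4.50 FPKM in Control. The groups did not overlap and the log2 change was -0.82 (SE 0.16, limma adjusted p = 0.00137). Jak1, a kinase of the interferon receptors, was at 21.9 ± 0.682 FPKM in OGD and 28 ± 1.2 FPKM in Control (log2 change -0.34, limma adjusted p = 0.00105). The rising member was Ifngr1, a subunit of the receptor for interferon gamma (log2 change 0.21, limma adjusted p = 0.0497), named after its value was seen. Tap1, the peptide transporter gene that lies beside Psmb9, was at 2.76 ± 0.558 and 4.21 ± 1.57 FPKM in OGD and Control and did not pass (limma adjusted p = 0.0926). Tap1 was likewise named after its value was seen. Microglial markers fell in the same libraries, and their part in these values was not tested.

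Regulators of proteasome genes showed both directions, with 4 of 10 tested higher, 1 lower and a median log2 change of 0.18. Over all tested genes 22.7% were higher and 26.8% lower. Nfe2l1 encodes the transcription factor NRF1, which raises proteasome genes when proteasome activity is short. It was at 21.3, 18.4, 22.1 and 17.8 FPKM in OGD and 21.3, 22.1, 21.0 and 21.4 FPKM in Control and did not pass (log2 change -0.11, limma adjusted p = 0.282). Ngly1, the enzyme that strips sugars from NRF1 and is needed for its activation, had 13.8, 11.5, 14.0 and 18.7 FPKM in OGD, against 6.46, 8.56, 7.12 and 7.6 FPKM in Control. The groups did not overlap and the log2 change was 0.86 (SE 0.13, limma adjusted p = 0.000396). Ddi2, the protease that cuts NRF1, was at 8.93 ± 0.664 and 8.35 ± 1.47 FPKM (limma adjusted p = 0.508). Mafg, Keap1 and Nfyc were the other higher genes, with log2 changes of 0.64, 0.26 and 0.29. Nfya, a subunit of the factor NF-Y that binds the CCAAT box, had 9.96, 9.25, 10.8 and 9.54 FPKM in OGD and 17.4, 16.8, 16.0 and 17.9 FPKM in Control (log2 change -0.73, SE 0.08, limma adjusted p = 2.85e-05). Nfyb, another subunit of NF-Y, did not pass (limma adjusted p = 0.281). Genes named here beside Ngly1 and Nfya were chosen after their values were seen.

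For the members' promoters, the 250 bases before the annotated starts were read from RefSeq (build GRCr8), in which 44 of the 50 members had an entry. The searched motifs, on both strands, were CCAAT, the hypoxia response core ACGTG, the antioxidant response core TGACNNNGC, and the interferon-stimulated core (GAAA, 2 unspecified bases, GAAA). The promoter of Psma4, the alpha gene with the largest fall, held 3 of these motifs, and that of Psmc1, the most abundant base gene, held 2. They are shown with those of Psmc6, the member that rose, and of Psmb9, which fell most, with motif letters in capitals.
Psma4: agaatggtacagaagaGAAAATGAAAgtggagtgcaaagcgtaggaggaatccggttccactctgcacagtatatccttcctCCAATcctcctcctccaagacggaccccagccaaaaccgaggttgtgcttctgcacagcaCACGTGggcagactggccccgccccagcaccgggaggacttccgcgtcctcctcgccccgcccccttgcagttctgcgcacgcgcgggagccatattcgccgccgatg
Psmc1: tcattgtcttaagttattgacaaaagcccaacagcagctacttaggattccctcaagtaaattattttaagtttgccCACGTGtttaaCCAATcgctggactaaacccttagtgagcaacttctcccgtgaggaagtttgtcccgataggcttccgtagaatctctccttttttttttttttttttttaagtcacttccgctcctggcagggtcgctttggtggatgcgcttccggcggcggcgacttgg
Psmc6: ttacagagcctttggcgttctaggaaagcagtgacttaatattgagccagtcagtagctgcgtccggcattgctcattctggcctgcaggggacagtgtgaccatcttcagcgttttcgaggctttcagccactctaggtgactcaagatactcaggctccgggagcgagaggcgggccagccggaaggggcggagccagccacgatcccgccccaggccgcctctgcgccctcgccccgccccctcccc
Psmb9: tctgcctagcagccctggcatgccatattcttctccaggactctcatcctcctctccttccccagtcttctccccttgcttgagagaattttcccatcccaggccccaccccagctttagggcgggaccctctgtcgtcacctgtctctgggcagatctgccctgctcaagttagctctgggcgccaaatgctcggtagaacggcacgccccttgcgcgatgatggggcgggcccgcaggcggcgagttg
These lie at chr8:64236270-64236519, chr6:125122247-125122496, chr15:21022064-21022313 and chr20:4668750-4668999 on the plus strand of GRCr8, not the build of the expression values. In Psma4 the interferon-stimulated core comes first, then the CCAAT box, and then ACGTG read on both strands, where the matches overlap as CACGTG. In Psmc1 CACGTG precedes CCAAT. None of the 4 motifs was found in these windows of Psmc6 and Psmb9.

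CCAAT was found in 21 of 44 members (47.7%) and in 34.3% of 27457 promoters of the same length. It was in 11 of 21 members that fell and in 9 of 20 that did not pass. By class it was in 9 of 13 core genes and 5 of 14 base and lid genes. ACGTG was in 20.5% of members and 16.9% of all promoters, with 5 of 21 falling members and 3 of 20 not called. TGACNNNGC was in 15.9% of members and 10.2% of all promoters, with 2 of 21 falling members and 5 of 20 not called. The interferon-stimulated core was in 11.4% of members and 3.29% of all promoters, with 3 of 21 falling members and 2 of 20 not called. It was in Psma4, Psmb3 and Psmd7, and in Psmb10 and Psme2 of the immunoproteasome genes. Psmb8, Psmb9 and Psme1 had no match. These matches are descriptions of the sequence and were not tested.

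Proteins that dock on the proteasome, or bring substrates to it, were on both sides. Of 14 tested, 4 were lower (28.6%) and 2 higher, with a median log2 change of -0.06. The lower share was near the 26.8% over all tested genes, of which 22.7% were higher. Adrm1, the ubiquitin receptor of the base whose symbol lies outside the rule, had 38.3, 34.1, 39.2 and 36.8 FPKM in OGD, against 51.2, 46.1, 47.2 and 42.2 FPKM in Control. It fell by 0.32 on the log2 scale (SE 0.07, limma adjusted p = 0.00426), with no overlap of the groups. Ube3c, a ubiquitin ligase of the proteasome, and Ubqln2, a shuttle for ubiquitin-tagged proteins, fell by 0.30 and 0.29 (limma adjusted p = 0.00259 and 0.00330), and Rad23b, another shuttle, fell by 0.19. The rising genes were Uchl5, the ubiquitin-cleaving enzyme that binds Adrm1 (log2 change 0.23), and Txnl1, a thioredoxin-like protein of the cap (0.24). Sem1, the small lid subunit held in the table under its older symbol, was at 86.9 ± 5.67 and 97.8 ± 15.4 FPKM (limma adjusted p = 0.236). Adrm1, Rad23b, Uchl5, Txnl1 and Sem1 were named after their values were seen.

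Of 14 tested genes that supply ubiquitin and unfold its targets, 8 were lower (57.1%) and 1 was higher. Over all tested genes 26.8% were lower and 22.7% higher. The median log2 change of the 14 was -0.25. Vcp, the ATPase that extracts ubiquitin-tagged proteins from membranes and complexes, had 96.4, 89.2, 101 and 114 FPKM in OGD, against 149, 144, 145 and 135 FPKM in Control. The groups did not overlap and it fell by 0.52 on the log2 scale (SE 0.08, limma adjusted p = 0.000292). Ube2k, a ubiquitin-conjugating enzyme, was at 15.1 ± 2.05 FPKM in OGD and 23.4 ± 0.584 FPKM in Control (log2 change -0.61, limma adjusted p = 0.000308). Uba1, the main ubiquitin-activating enzyme, was lower (log2 change -0.25, limma adjusted p = 0.00670) while Uba6, the other activating enzyme, was the rising member (log2 change 0.45, limma adjusted p = 0.00162), both named after their values were seen.

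Both tissue-specific core genes and the pseudogene were at or near 0. Psma8 and Psme1-ps1 were listed at 0 in all 8 libraries, and Psmb11 at 0 in all but Control replicate 3 (0.173 FPKM). Psmc3ip was at 13.5 ± 3.06 FPKM in OGD and 14.4 ± 0.695 FPKM in Control and did not pass (limma adjusted p = 0.487), with OGD replicate 4 at 18.0 FPKM above all other libraries. Close copies and overlapping genes limit several values: RefSeq lists pseudogenes or like-named copies for 19 of the 50 members and an overlapping gene for 14.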

How the data were processed

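Per the labels' protocols, RNA was purified with an RNeasy kit and strand-specific libraries were prepared by Agilent SureSelect for the Illumina MiSeq. The values the authors deposited are FPKM, with a column for each sample, per the file headers. Trimmomatic, FastQC and the build rn6 (Rnor_6.0) are named in the submitters' processing notes. Which aligner, FPKM program and annotation were used, and whether strand was, is not given in the sources used here. These values hold no counts, so no interval from counts could be made. They are scaled to the library total, so that abundant genes affect all others.

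The filter of 1 FPKM or more in 4 or more samples left 11149 of 32662 genes. Their log2(FPKM + 1) was fitted with limma 3.58.1 under R 4.3.3 (group as the only term, two-sided, empirical Bayes with a trend), with Benjamini-Hochberg adjustment over all tested genes and a threshold of 0.05. Fold changes on this scale understate those of low genes. The procedure was tested on simulated data. The members and lists were chosen with earlier results of these data known, so lists are given as counts and medians, with no list test. Of 151 list entries 1 matched by an older symbol and 7 were unmatched. Fully described were the 8 largest rises and falls among called members, the immunoproteasome genes with their counterparts, the top gene of each class, and the 2 genes of smallest p (pathways) or highest level (markers) of each list. Lists for precursor, microglial, astrocyte, neuronal and vascular markers were read. Of 9 matched precursor markers 6 were lower and 0 higher, while over all tested genes 26.8% were lower and 22.7% higher. Relative depth came from ratios of values up to 0.5 FPKM, of which 64.9% to 68.2% were ratios of whole numbers up to 4 within 0.01 on the log2 scale. Ratios of subunits were tested by exact permutation. Alternatives were quantile normalization, median-centring, rescaling outside mitochondrially encoded genes, no filter, 5 FPKM, a pseudocount of 0.1, no trend, a replicate block and each sample left out. Dropping both OGD replicate 4 and Control replicate 1 was chosen after seeing the data. Python 3.11.15, pandas 2.3.3, numpy 2.4.6, scipy 1.17.1 and matplotlib 3.10.9 were used.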

Additional observations from a re-analysis of the deposited data

Results flagged for a closer look

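A gap between 1 library and the other 3 of its group was wide for 7 of the 79 gene and group pairs examined, and about 3.95 would be by chance. Psmb5 in OGD replicate 4 was at 98.2 FPKM, against 72.7 to 75.7 FPKM in the other OGD libraries. Psmc3ip in OGD replicate 4 was at 18.0 FPKM, against 11.5 to 12.3 FPKM. Psme3 in OGD replicate 3 was at 47.5 FPKM, against 44.8 to 45.1 FPKM. Psmb6 and Psmd14 in Control replicate 1 were at 110.0 and 51.3 FPKM, against 86.8 to 90 and 44.9 to 45.7 FPKM in the other Control libraries. Psmb11 in Control replicate 3 was at 0.173 FPKM, against 0 in the others. C1qa, a microglial marker, was at 81.9 FPKM in Control replicate 4, against 49.4 to 55.0 FPKM.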

How the results depend on the processing

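Of the 25 lower members, 20 were lower under all 17 alternatives, as Psmc6 was higher. The lower count was 22 (quantile normalization) to 26 (median-centring or no filter) when all samples were kept, and 22 to 30 with single samples left out. The 5 that lost the call in some setting were Psma6, Psmb3, Psmd4, Psmd6 and Psmg3. The count of higher members was 2 with quantile normalization (Psmb7 added) and 1 to 2 with single samples left out. Lower assembly chaperones numbered 1 to 2 with single samples left out. Lower core genes numbered 4 with quantile normalization and 4 to 8 with samples left out, and lower immunoproteasome and PA28 genes 2 to 3. Without the filter Psmb8 entered the test and was lower (adjusted p = 0.0181). The median of all tested genes moved from -0.04 to between -0.07 and -0.003 under the scalings, and the median of all members stayed between -0.27 and -0.18. The median of the assembly chaperones lay on either side of 0. Rescaling outside mitochondrially encoded genes left 25 members lower, all 25 shared, beside 23.9% of all tested genes. Same-numbered samples did not deviate together (correlations of -0.22, 0.16, 0.01 and 0.09), and OGD replicate 1 correlated best with Control replicate 2, so replicate numbers were not taken as pairs. With a replicate block 25 members were lower and 1 higher. The block gave an exact p of 0.250 for both ratios and the ratios kept their sign in every setting. Depth limits Psmb8 and the other genes near 0.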
